A study of Mus musculus with 16 samples.

Results

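The genes described here are 10 mouse genes of the Toll-like receptor and Fc gamma receptor systems: Tlr2, Tlr4, Tlr7, Cd14, Myd88, Fcgr1, Fcgr2b, Fcgr3, Fcgr4 and Fcer1g. Every probe whose symbol in the deposited non-normalized table equals one of these names was taken, which gave 13 of 25697 probes, for 10 of 18097 symbols. Expression was measured on an Illumina BeadChip, an array of bead-bound 50-base probes, in whole hamstring muscle of female mice 2 days after surgery. The mice had spinal cord injury (SCI) between vertebrae T12-13 or sham surgery, each combined with saline or cardiotoxin (CDTX), a toxin of snake venom that kills muscle fibres, injected into the muscle. This gave 4 arrays in each of the groups Sham+Saline, Sham+CDTX, SCI+Saline and SCI+CDTX. Per the series design, only the SCI+CDTX combination leads to neurogenic heterotopic ossification, the growth of bone inside muscle that follows damage to the central nervous system. The labels give neither strain nor age, and they do not say whether each array is 1 animal, so the p-values measure the spread between these samples.

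Toll-like receptors recognise microbial products and molecules released by damaged cells. Most of them signal through the adaptor MyD88 to NF-kappaB and to inflammatory cytokine genes. Fc gamma receptors bind the constant part of IgG: the activating ones signal through an ITAM, a tyrosine motif that in mice is carried by the shared Fc receptor gamma chain, and the inhibitory one, Fc gamma RIIb, carries an ITIM, which recruits phosphatases that dampen the signal. Both systems are best known from macrophages, monocytes and neutrophils, cells that enter muscle after toxin injury.

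Probe sequences show which part of a transcript each measurement reads, and they are shown here for the genes whose probes behaved differently from one another and for Tlr2. They are copied from the deposited table, 5′ to 3′, with positions as that table lists them and with a genome build that is not named in the sources used here. In the first Fcgr2b probe the capitals mark the codons of the tyrosine, serine and the pair of leucines at the core of the ITIM. The second Fcgr2b probe is of the type that reads a single transcript variant.
Fcgr2b ILMN_1228657 (chr1:172891167-172891216, minus strand): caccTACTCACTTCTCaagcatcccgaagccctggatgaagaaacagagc
Fcgr2b ILMN_3029178 (chr1:172893513-172893562, minus strand): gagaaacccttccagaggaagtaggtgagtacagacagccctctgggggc
Tlr2 ILMN_2733733 (chr3:83640551-83640600, minus strand): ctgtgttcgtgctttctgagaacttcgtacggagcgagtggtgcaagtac
Tlr4 ILMN_2690004 (chr4:66495044-66495093, plus strand): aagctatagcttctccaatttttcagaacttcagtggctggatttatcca
In the same table, the probes of Fcgr2b, Fcgr3 and Fcgr4 lie on chromosome 1, those of Tlr2 on 3, Tlr4 on 4, Myd88 on 9, Cd14 on 18 and Tlr7 on X. Fcgr2b and Fcgr3 are close relatives, and whether their probes also bind each other's transcripts was not tested.

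Levels are log2 normalized intensities, and a probe counts as detected on an array where its detection p-value was under 0.05. The labels state that SCI+CDTX replicate 2 was left out of the authors' final analysis, so 15 arrays entered the fit. That array is given separately, from a normalization of all 16 arrays, with Tlr2, Cd14, Myd88 and Fcgr4 described below. It was below every Sham+CDTX array for Tlr7 (6.76), Fcgr1 (6.38), the brightest Fcgr2b probe (7.75), Fcgr3 (8.04) and Fcer1g (11.25). For Tlr4 (6.35) it was within their range. A probe was tested where it was detected on at least 3 arrays, which held for 12 of the 13 probes and for 14763 of all probes. Calls are at a Benjamini-Hochberg adjusted p under 0.05 over all tested probes in limma, and all adjusted p-values below are from that fit unless another test is named.

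Facts that touch many of the results come first. All SCI arrays lie on slide 1 and all sham arrays on slide 2, so slide and surgery cannot be told apart. Each CDTX effect lies within a slide. On both slides the CDTX arrays hold positions A to D and the saline arrays E to H, so position and CDTX cannot be told apart either. Between 11114 and 13694 probes were detected per array, and the Sham+Saline arrays had the lowest mean raw intensity, at 230.5 to 277 against 319.9 to 373.1 in the others. A score of how the pair of brightest probes of a gene differ, computed over 2823 genes that are none of the 10, set apart the Sham+CDTX arrays (18.4 to 20.8) and SCI+CDTX 2 (14.9) from the other 11 arrays (-14.1 to -3.7). The score moves with Sham+CDTX and its part in the results was not tested beyond the fit that holds it as a term. Muscle fibre markers were at 12.9 or above in their mean on each of the 15 arrays, and none of the 12 was undetected.

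All 10 genes rose with CDTX, both after SCI and after sham surgery. Of the 12 tested probes, 11 were higher with CDTX in SCI mice and none was lower, beside 20.4% of all tested probes called higher and 22.5% called lower. In sham mice 11 were higher and none was lower, beside 23.1% called higher and 25.8% called lower. The compared groups did not overlap for those 11 probes in either case, against 22.4% of all tested probes higher without overlap in SCI mice and 21.5% in sham mice. The median log2 fold change of the 12 probes was 1.78 in SCI mice and 2.55 in sham mice, against -0.05 and -0.04 over all tested probes. The twelfth probe, the variant probe of Fcgr2b, did not pass in either. No probe was lower in either case at an unadjusted p under 0.05. Bulk muscle RNA cannot tell apart more cells of a type and more RNA per cell.

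**Figure D1:**
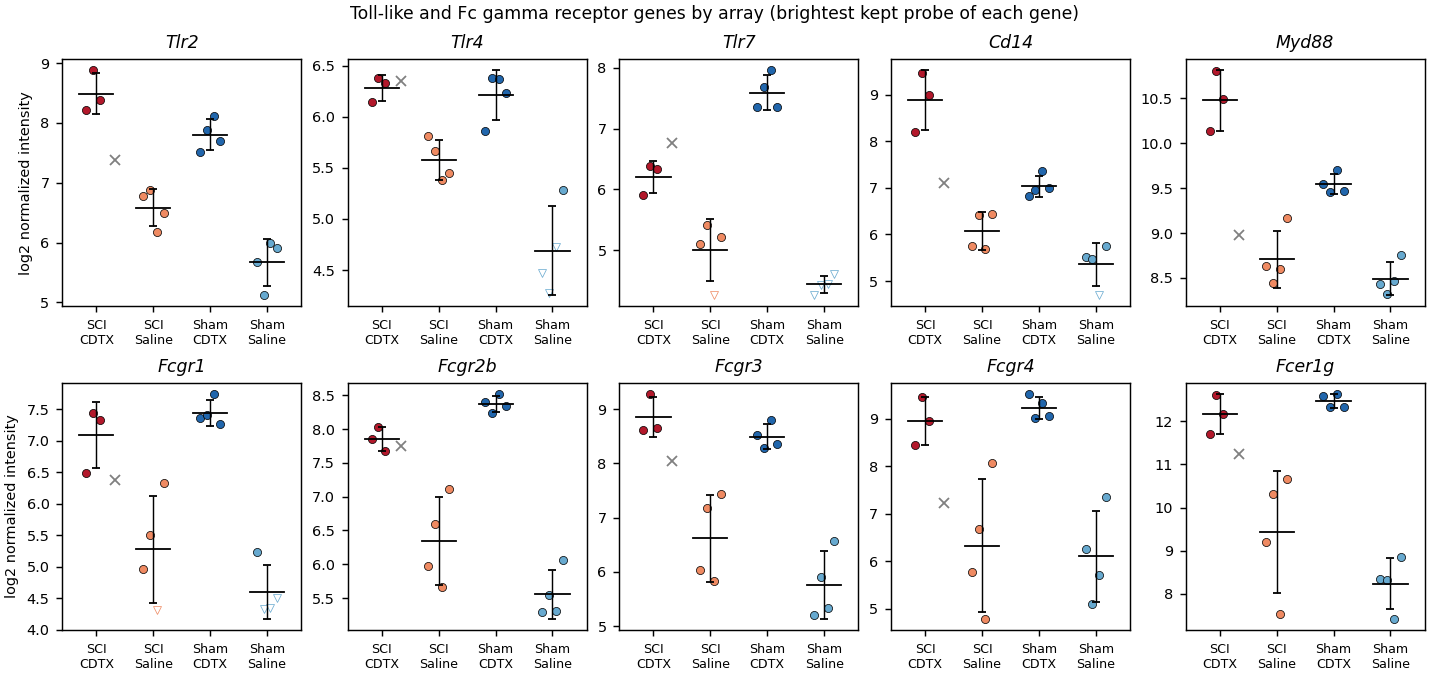
Log2 normalized intensity of the brightest tested probe of each of the 10 genes, by group. Filled circles are arrays with the probe detected, open triangles arrays without, lines and bars the mean and SD (n = 3 in SCI+CDTX, 4 in the others), and crosses the SCI+CDTX 2 array left out by the authors; the CDTX arrays in the fit lie above the saline arrays of the same surgery in every panel.

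Among the surface Toll-like receptors, Tlr2, which recognises bacterial lipopeptides, was detected on all 16 arrays. Its levels were 8.21, 8.88 and 8.38 in SCI+CDTX and 6.78, 6.87, 6.18 and 6.49 in SCI+Saline. They were 7.52, 7.89, 8.11 and 7.70 in Sham+CDTX and 5.67, 5.12, 6.0 and 5.90 in Sham+Saline. Among the 15 arrays in the fit no pair of groups overlapped, in the order SCI+CDTX, Sham+CDTX, SCI+Saline and Sham+Saline from the highest. The left-out SCI+CDTX 2 array stood at 7.38, below every Sham+CDTX array, which were at 7.56 to 8.15 in the same normalization of 16 arrays. CDTX raised Tlr2 by 1.91 ± 0.22 (log2 fold change ± SE) after SCI, adjusted p = 4.09e-06, and by 2.13 ± 0.21 after sham surgery, adjusted p = 1.78e-07. The interaction, the CDTX effect in SCI mice minus that in sham mice, did not pass for Tlr2 and was -0.22 with a 95% interval of -0.86 to 0.42.

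Tlr4, the receptor for bacterial lipopolysaccharide, was read by a probe near position 2636 of the transcript, which was detected on 13 of 16 arrays. The levels were 6.14, 6.38 and 6.33 in SCI+CDTX and 5.81, 5.66, 5.38 and 5.45 in SCI+Saline. In Sham+CDTX they were 5.86, 6.38, 6.37 and 6.23, and in Sham+Saline 4.47, 4.28, 4.73 and 5.28. Only 1 of the 4 Sham+Saline arrays had Tlr4 detected, and that array was the highest of its group. The rise with CDTX was 0.71 ± 0.20 after SCI, adjusted p = 0.00835, and 1.52 ± 0.19 after sham surgery, adjusted p = 2.45e-06. In the fit of all 16 arrays with the score as a term, the latter was 1.12 and did not pass, adjusted p = 0.0925.

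The other Tlr4 probe, printed above, starts at position 228 of the same transcript. It was detected on none of the 16 arrays, with levels of 4.15 to 4.46 on the 15 arrays in the fit, and was not tested. Its G and C content was 38.0%, the lowest of the 13 probes. It gives no measurement of Tlr4 in this muscle, and the finding on Tlr4 rests on the other probe alone.

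Tlr7, the endosomal receptor for single-stranded RNA, was lower in SCI+CDTX than in Sham+CDTX on every array in the fit. Its levels were 5.91, 6.39 and 6.33 in SCI+CDTX against 7.36, 7.68, 7.96 and 7.36 in Sham+CDTX. They were 5.10, 5.42, 4.26 and 5.21 in SCI+Saline and 4.26, 4.43, 4.44 and 4.61 in Sham+Saline. The Tlr7 probe was detected on 3 of 4 SCI+Saline arrays and on no Sham+Saline array. CDTX raised Tlr7 by 1.22 ± 0.23 after SCI, adjusted p = 0.000305, and after sham surgery at least 6.99-fold, with measured means of 7.59 and 4.44, adjusted p = 3.68e-09. The bound sets each Sham+Saline array to the lowest signal of any detected probe there, or to this probe's signal where that is higher.

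Cd14, the co-receptor that hands lipopolysaccharide to TLR4, had levels of 8.20, 9.46 and 8.99 in SCI+CDTX. The other groups were lower: Sham+CDTX at 6.82, 6.96, 7.36 and 6.99, SCI+Saline at 5.76, 6.41, 5.68 and 6.45, and Sham+Saline at 5.52, 5.48, 4.70 and 5.76. Every SCI+CDTX array in the fit was above every array of the other groups, and the saline groups overlapped. The rise with CDTX was 2.81 ± 0.28 after SCI, adjusted p = 1.16e-06, a rank of 60 from the highest of 14763 probes, and 1.67 ± 0.26 after sham surgery, adjusted p = 3.41e-05. The left-out SCI+CDTX 2 array stood at 7.10, within the range of the Sham+CDTX arrays.

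Myd88, the adaptor shared by most Toll-like receptors, was bright on every array. It stood at 10.13, 10.80 and 10.49 in SCI+CDTX and at 9.54, 9.46, 9.70 and 9.47 in Sham+CDTX. The SCI+Saline arrays had 8.63, 8.44, 8.60 and 9.17, and the Sham+Saline arrays 8.43, 8.32, 8.47 and 8.75. The SCI+CDTX arrays in the fit were again the highest and the saline groups overlapped. Myd88 rose with CDTX by 1.76 ± 0.19 after SCI, adjusted p = 1.7e-06, and by 1.05 ± 0.17 after sham surgery, adjusted p = 5.56e-05. SCI+CDTX 2 stood at 8.98, below every Sham+CDTX array and below 1 SCI+Saline array.

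Fcer1g, the gamma chain that carries the ITAM for the activating Fc gamma receptors, was detected on all 16 arrays. Its levels were 11.70, 12.62 and 12.18 in SCI+CDTX and 12.60, 12.33, 12.63 and 12.33 in Sham+CDTX. They were 9.19, 10.32, 7.53 and 10.67 in SCI+Saline and 8.33, 8.31, 7.42 and 8.85 in Sham+Saline. The SCI+Saline arrays were spread over a wider range than the other groups, and the CDTX groups overlapped. The rise with CDTX after sham surgery, 4.25 ± 0.46 with adjusted p = 5.85e-07, was the largest among the 12 probes and ranked 12 from the highest of all tested probes. After SCI the rise was 2.74 ± 0.50, adjusted p = 0.000251.

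Fcgr1, the high-affinity activating receptor, was detected on 12 of 16 arrays. Its levels were 6.49, 7.44 and 7.33 in SCI+CDTX and 4.96, 5.51, 4.32 and 6.32 in SCI+Saline. In Sham+CDTX they were 7.36, 7.40, 7.74 and 7.27, and in Sham+Saline 5.23, 4.33, 4.34 and 4.51. The probe was detected on 1 of 4 Sham+Saline arrays and 3 of 4 SCI+Saline arrays. Fcgr1 rose by 1.80 ± 0.34 after SCI, adjusted p = 0.000375, and by 2.84 ± 0.32 after sham surgery, adjusted p = 8.47e-07.

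Fcgr3, the low-affinity activating receptor, was detected on every array. It stood at 8.62, 9.28 and 8.66 in SCI+CDTX and at 8.52, 8.29, 8.80 and 8.36 in Sham+CDTX. The saline arrays were lower, at 6.03, 7.17, 5.84 and 7.44 in SCI+Saline and 5.21, 5.91, 5.34 and 6.57 in Sham+Saline. The CDTX groups overlapped, as did the saline groups. Its rise with CDTX was 2.23 ± 0.35 after SCI, adjusted p = 6.44e-05, and 2.73 ± 0.33 after sham surgery, adjusted p = 1.63e-06.

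Fcgr4, the activating receptor of intermediate affinity, had levels of 8.45, 9.46 and 8.94 in SCI+CDTX and 9.52, 9.01, 9.32 and 9.06 in Sham+CDTX. In the saline groups it varied more than most of the other genes, at 5.78, 6.67, 4.79 and 8.07 in SCI+Saline and 6.25, 5.09, 5.72 and 7.36 in Sham+Saline. Array 4 was the highest in both saline groups. Fcgr4 rose by 2.62 ± 0.55 after SCI, adjusted p = 0.000854, and by 3.12 ± 0.51 after sham surgery, adjusted p = 5.36e-05. SCI+CDTX 2 stood at 7.23, below all Sham+CDTX arrays and below SCI+Saline 4.

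Fcgr2b, the inhibitory receptor, has 3 probes that can be set side by side within a gene. The probe over the ITIM codons had levels of 7.85, 8.03 and 7.67 in SCI+CDTX, 8.40, 8.24, 8.52 and 8.34 in Sham+CDTX, 5.97, 6.60, 5.67 and 7.12 in SCI+Saline, and 5.30, 5.54, 5.31 and 6.07 in Sham+Saline. It rose with CDTX by 1.51 ± 0.26 after SCI, adjusted p = 0.00016, and by 2.82 ± 0.24 after sham surgery, adjusted p = 4.87e-08. The probe ILMN_3102376 moved with it, by 1.28 ± 0.21, adjusted p = 9.07e-05, and 2.38 ± 0.19, adjusted p = 2.62e-08. ILMN_3102376 was detected on 13 of 16 arrays, and on 1 of 4 in Sham+Saline, where its levels were 4.34 to 4.87.

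The third Fcgr2b probe, which reads a single transcript variant, did not follow the others. Its levels were 4.81, 4.66 and 4.57 in SCI+CDTX and 4.56, 4.35, 4.32 and 4.40 in Sham+CDTX, against 4.33, 4.39, 4.23 and 4.93 in SCI+Saline and 4.43, 4.51, 4.40 and 4.41 in Sham+Saline. It was detected on 5 of 16 arrays, of which 3 were SCI+CDTX arrays. The CDTX effect was 0.21 with a 95% interval of -0.12 to 0.54 after SCI, adjusted p = 0.298, and -0.03 with an interval of -0.33 to 0.28 after sham surgery, adjusted p = 0.891. Without SCI+Saline 4, the only array of its group with the variant probe detected, and without Sham+Saline 4, its CDTX effect after SCI was 0.38, adjusted p = 0.0425. At these low intensities a change of the variant may not be measurable.

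**Figure D2:**
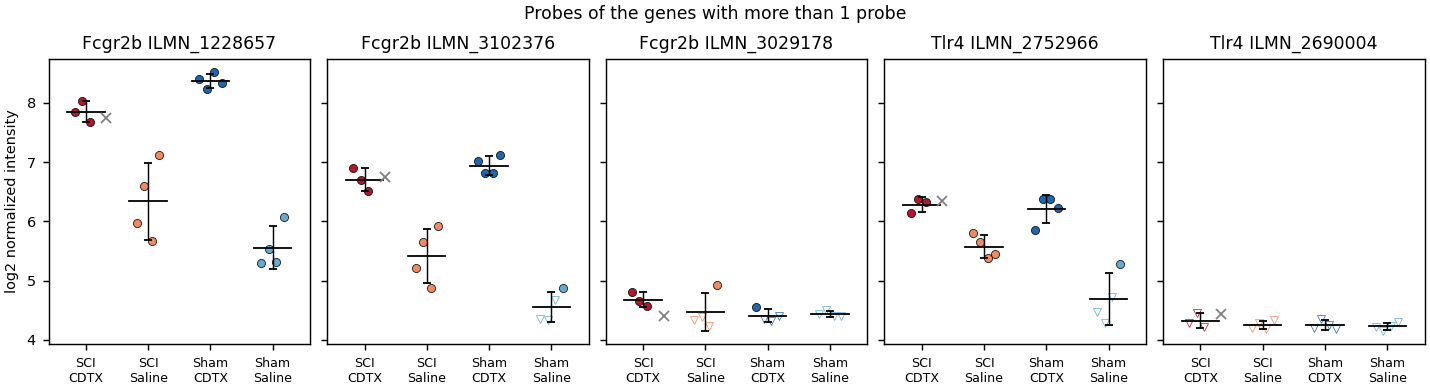
Log2 normalized intensity of the 3 probes of Fcgr2b and the 2 of Tlr4, by group, with the symbols of the plot of levels by array. The variant probe of Fcgr2b and the 5′ probe of Tlr4 stay below 5 on all arrays, while the other probes of the same genes rise with CDTX.

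**Figure D3:**
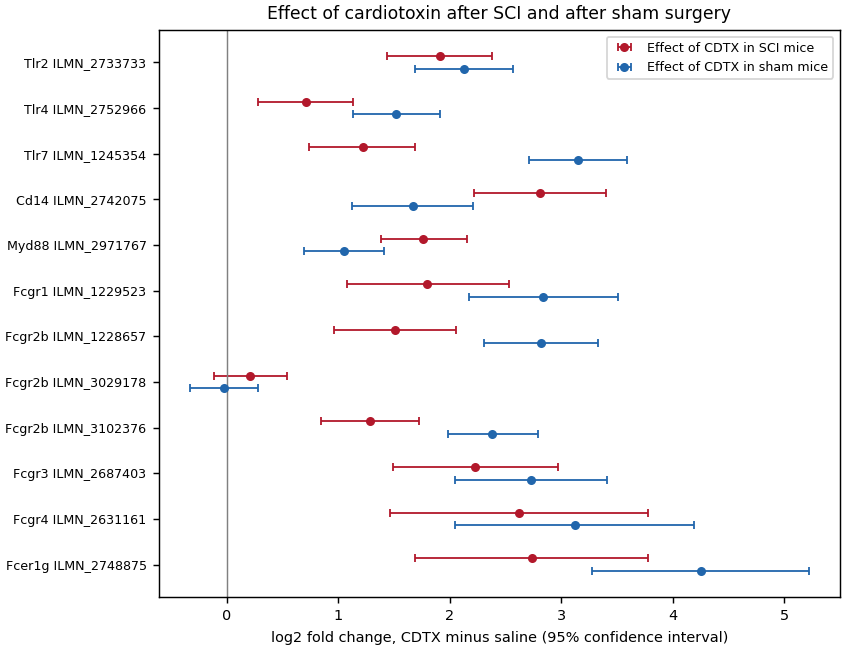
Log2 fold change of each tested probe with CDTX, after SCI and after sham surgery, with 95% confidence intervals from limma. All intervals but those of the variant probe of Fcgr2b lie above 0, and those of Fcgr2b ILMN_1228657 do not overlap between SCI mice (0.96 to 2.06) and sham mice (2.31 to 3.33). The sham value of Tlr7 is a fitted one, its probe being undetected in Sham+Saline.

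With 15 arrays, the CDTX effect differed between SCI and sham mice for 6 of the 12 probes by the test of the interaction. It was larger after SCI for Cd14 and Myd88 and smaller for Tlr4, Tlr7 and both rising probes of Fcgr2b, beside 12.0% of all tested probes with a positive and 11.6% with a negative interaction. The interaction was 1.14 ± 0.38 for Cd14, adjusted p = 0.0374, and 0.72 ± 0.25 for Myd88, adjusted p = 0.0471. It was -1.93 ± 0.31 for Tlr7, adjusted p = 0.000232, and -0.81 ± 0.28 for Tlr4, adjusted p = 0.0394. Both are fitted values whose size is uncertain, since Tlr7 was detected on none and Tlr4 on 1 of the 4 Sham+Saline arrays. For the Fcgr2b probes it was -1.31 ± 0.36, adjusted p = 0.012, and -1.10 ± 0.29, adjusted p = 0.00892. The latter probe, ILMN_3102376, was also detected on 1 of the 4 Sham+Saline arrays, so the size of its interaction is uncertain too. Fcer1g had -1.51 ± 0.68, adjusted p = 0.119, and Fcgr1 -1.03 ± 0.47, adjusted p = 0.123. The call held in 12 of 26 alternatives for Cd14, 9 of 26 for Myd88 and 10 of 26 for Tlr4, against 25 of 26 for Tlr7 and for each of these Fcgr2b probes, whose exception was the fit with the score. With median scaling 0 interactions were positive and 5 negative, and 0 were positive in 9 of the 15 fits that left out 1 array. Over those 15 fits 3 to 6 were negative.

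In CDTX-injected muscle, 3 probes were higher after SCI than after sham surgery, those of Cd14, Myd88 and Tlr2, and 1 was lower, that of Tlr7, beside 14.9% of all tested probes called higher and 14.9% called lower. Cd14 was 1.85 ± 0.28 higher, adjusted p = 7.78e-05, and Myd88 0.93 ± 0.19 higher, adjusted p = 0.000889. Tlr2 was 0.68 ± 0.22 higher, adjusted p = 0.0274, and Tlr7 was lower, at -1.37 ± 0.23 with adjusted p = 0.000166. No Fc receptor gene passed: the differences were -0.36 (95% interval -1.08 to 0.36) for Fcgr1, 0.36 (-0.38 to 1.10) for Fcgr3, -0.28 (-1.43 to 0.88) for Fcgr4 and -0.31 (-1.36 to 0.73) for Fcer1g. For Fcgr2b the brightest probe was at -0.53 (-1.08 to 0.02) and ILMN_3102376 at -0.24 (-0.68 to 0.20). The variant probe was at 0.27 (-0.06 to 0.60). The variant probe lies near background, at 4.57 to 4.81 in SCI+CDTX and 4.32 to 4.56 in Sham+CDTX, so no direction is read from it. It reached the 3 arrays needed for testing only through the SCI+CDTX arrays. On the left-out SCI+CDTX 2 array it was undetected, at 4.41.

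These differences after CDTX, and the interaction, changed with the treatment of the SCI+CDTX 2 array and the probe difference score, which was high in all 4 Sham+CDTX arrays. With all 16 arrays, 2 probes passed in CDTX-injected muscle, Cd14 at 1.39 and Tlr7 at -1.25, and 3 had an interaction, Tlr7 and both rising Fcgr2b probes. With the score as a term, none of the 12 probes passed in either comparison in limma, and 0 and 4 had an unadjusted p under 0.05 between the CDTX groups and in the interaction. Cd14 was then 0.10 and Tlr7 -0.45, Tlr2 turned to -0.10 and Myd88 to -0.61, and the interaction turned to -0.80 for Cd14 and -0.98 for Myd88. Only SCI+CDTX 2 has a high score outside the Sham+CDTX group, so that array carries the distinction between score and group. The CDTX effect passed for 11 probes in SCI mice and 10 in sham mice in the same fit.

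**Figure D4:**
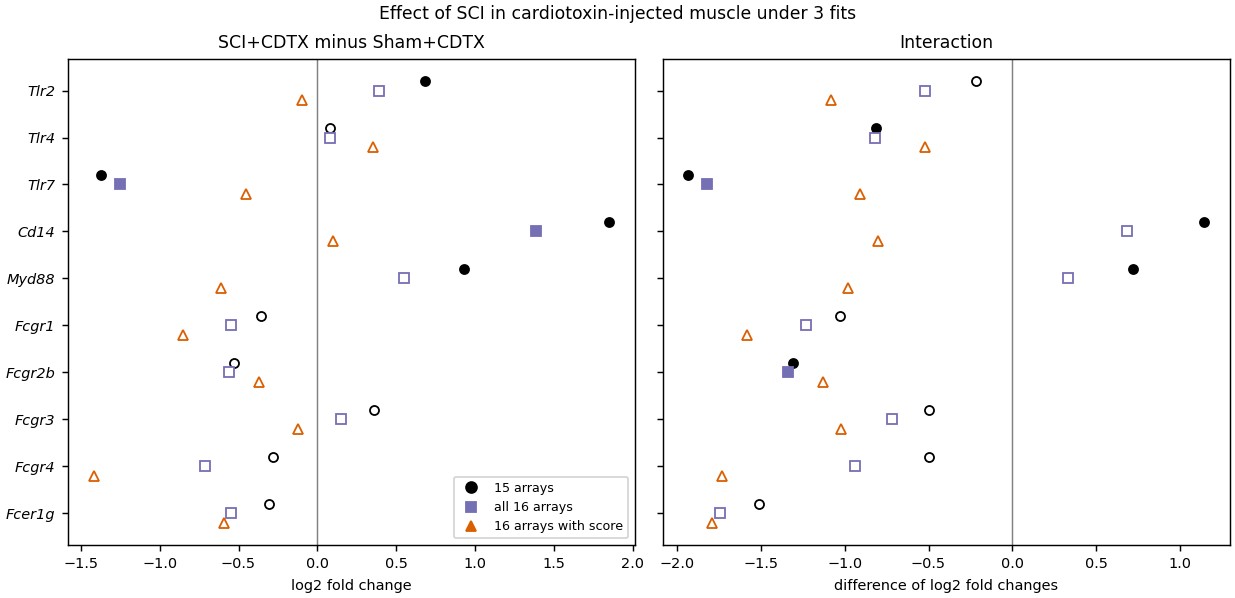
Log2 fold change of SCI+CDTX over Sham+CDTX (left) and the interaction (right) for the brightest tested probe of each gene under 3 fits. Filled symbols have an adjusted p under 0.05; with the score, no symbol is filled and Cd14, at 1.85 with 15 arrays, lies at 0.10.

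In saline-injected muscle, 5 probes of 4 genes were higher after SCI than after sham surgery and none was lower, beside 14.8% of all tested probes called higher and 14.6% called lower. Tlr2 was 0.90 ± 0.21 higher, adjusted p = 0.00285, and Tlr4 0.89 ± 0.19 higher, adjusted p = 0.00145, both without overlap of the groups. Cd14 was 0.71 ± 0.26 higher, adjusted p = 0.0477, and the Fcgr2b probes 0.78 ± 0.24, adjusted p = 0.0204, and 0.86 ± 0.19, adjusted p = 0.00252. Tlr4 and ILMN_3102376, the latter of these Fcgr2b probes, were each detected on 1 of 4 Sham+Saline arrays, so their sizes are uncertain. Fcer1g had the largest difference, 1.20 ± 0.46, and did not pass, adjusted p = 0.0588. Myd88 was at 0.22 (95% interval -0.14 to 0.58) and Fcgr4 at 0.22 (-0.85 to 1.29). The count rested on single arrays: it was 3 without SCI+Saline 2, SCI+Saline 4, Sham+Saline 1 or Sham+Saline 3, and 9 without SCI+Saline 3. Cd14 did not pass when SCI+Saline 4 and Sham+Saline 4 were both left out, at 0.72 with adjusted p = 0.064, while Fcgr3 then did, at 0.87 with adjusted p = 0.0281.

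The authors' deposited table of average-normalized, background-subtracted intensity gives the same order of the CDTX groups for the 4 genes called there. Its group means for Cd14 were 528.8 in SCI+CDTX and 137.8 in Sham+CDTX, with a difference p of 0.0111 in the authors' deposited table. For Tlr7 the authors' deposited table has 73.2 and 205.4, with a difference p of 2e-05. For Tlr2 it has 388.2 and 238.7, with a difference p of 0.0758, which does not pass. For the brightest Fcgr2b probe the authors' deposited table has 250.2 and 351.8, with a difference p of 0.0184. For ILMN_3102376 it has 108.3 and 127.7, with a difference p of 0.551. Whether these p-values were adjusted is not given in the sources used here.

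The balance of activating and inhibitory receptor was read as the level of Fcgr1, Fcgr3 or Fcgr4 minus that of Fcgr2b on each array, which shows unequal change of a pair of probes and not their relative abundance. The 12 exact two-sided permutation tests could not pass at 0.05 after adjustment, since the smallest unadjusted p is 0.0571 for 3 against 4 arrays and 0.0286 for 4 against 4, so the values are a description. Fcgr3 minus Fcgr2b was 1.00 ± 0.23 (SD, n = 3) in SCI+CDTX, 0.12 ± 0.12 (n = 4) in Sham+CDTX and 0.28 ± 0.22 (n = 4) in SCI+Saline. The change was 0.89 against Sham+CDTX and 0.72 against SCI+Saline, each with an exact permutation p of 0.0571, and 0.343 after adjustment. Fcgr1 minus Fcgr2b changed by 0.02 with CDTX in sham mice and 0.29 in SCI mice, exact permutation p = 0.971 and 0.4. Fcgr4 minus Fcgr2b changed by 0.30 in sham mice and 1.11 in SCI mice, exact permutation p = 0.571 and 0.114. Between the CDTX groups it differed by 0.25, exact permutation p = 0.4. These values leave out SCI+CDTX 2. With all 16 arrays normalized, that array had Fcgr3 at 8.04, Fcgr4 at 7.23 and Fcgr2b at 7.75. Fcgr3 was there closer to Fcgr2b than on any SCI+CDTX array in the fit, and Fcgr4 was below Fcgr2b.

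Other genes of the Toll-like receptor pathway were taken from a list of 42, of which 35 were tested. With CDTX, 23 rose and 4 fell in SCI mice, and 21 rose and 4 fell in sham mice, with medians of 0.65 and 0.61, against the shares of all tested probes given for the CDTX effects above. Tlr13, an endosomal receptor for bacterial RNA, rose by 2.36 ± 0.32 after SCI, adjusted p = 1.58e-05, and by 4.35 ± 0.30 after sham surgery, adjusted p = 3.9e-09. Cd180, a relative of TLR4 on the cell surface, rose by 2.11 ± 0.25 and 3.43 ± 0.23, adjusted p = 4.09e-06 and 3.8e-09. Among the genes that fell was Tirap, the adaptor that brings MyD88 to TLR2 and TLR4, by 0.90 on the log2 scale in sham mice, adjusted p = 0.000306.

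Between the CDTX groups, 8 of the 35 Toll-like receptor pathway genes were higher after SCI and 5 lower, beside 14.9% of all tested probes in each direction. With all 16 arrays 4 were higher and 4 lower, and with the score 0 of 35 passed in limma. Irf3 was higher by the most, at 1.44 ± 0.15, adjusted p = 1.5e-06. Those higher also included Nfkb2, a subunit of NF-kappaB, at 1.32 ± 0.19, adjusted p = 4.36e-05, and Nfkbia, its inhibitor and target gene, at 1.20 ± 0.20, adjusted p = 0.000166. Those lower included Tlr13 at -1.10 ± 0.32, adjusted p = 0.0142, and Irf7, like Irf3 a transcription factor of the interferon response, at -1.24 ± 0.36, adjusted p = 0.0135. In saline-injected muscle 10 were higher after SCI and 5 lower, beside 14.8% and 14.6% of all tested probes, with Nfkb2 at 1.89 ± 0.17, adjusted p = 2.75e-07. The interaction was positive for 8 and negative for 5, beside 12.0% and 11.6%, with all 16 arrays positive for 2 and negative for 4, and with the score positive for 0 and negative for 1. That of Tlr13 was -2.0 ± 0.44, adjusted p = 0.00276.

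Of 38 genes of Fc receptor signalling, 31 were tested. With CDTX 22 rose and 1 fell in SCI mice, and 26 rose and none fell in sham mice, with medians of 1.26 and 1.5. The shares of all tested probes were 20.4% higher and 22.5% lower in SCI mice, and 23.1% and 25.8% in sham mice. Tyrobp, another ITAM-bearing adaptor, rose by 3.69 ± 0.43 after sham surgery, adjusted p = 1.25e-06. Vav1, an exchange factor for Rac, rose by 2.96 ± 0.30 after SCI, adjusted p = 1.19e-06, and Plcg2, a phospholipase downstream of ITAM receptors, by 2.99 ± 0.34, adjusted p = 3.3e-06. Between the CDTX groups 2 were higher after SCI and 6 lower, beside 14.9% of all tested probes in each direction, while with all 16 arrays 0 were higher and 4 lower, and with the score 0 of 31 passed in limma. Among those lower with 15 arrays was Was, the actin regulator of the phagocytic cup, at -1.73 ± 0.29, adjusted p = 0.000188. In saline-injected muscle 3 were higher and 1 lower, below the 14.8% and 14.6% of all tested probes, and the interaction was positive for 2 and negative for 5, beside 12.0% and 11.6%. With the score the interaction was called for 0 of the 31 in limma.

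Markers of monocytes and macrophages moved with the receptor genes. Of 13 tested markers 11 rose with CDTX after either surgery, with medians of 2.11 and 3.08, and none fell. Of all tested probes, 20.4% were called higher with CDTX in SCI mice and 23.1% in sham mice. Their mean level was 8.82 to 9.25 in SCI+CDTX, 9.17 to 9.37 in Sham+CDTX, 6.28 to 7.70 in SCI+Saline and 6.36 to 6.91 in Sham+Saline. Of 14 listed markers on the array, Ccr2 was detected on no array. The level of each gene minus the mean level of this list differed between SCI+CDTX and Sham+CDTX by -0.09 for Fcgr1, -0.26 for Fcgr2b, 0.63 for Fcgr3, -0.01 for Fcgr4 and -0.05 for Fcer1g. The same difference was 2.12 for Cd14, 1.20 for Myd88, 0.95 for Tlr2, 0.34 for Tlr4 and -1.11 for Tlr7. These values are from 15 arrays and were not tested. On the left-out SCI+CDTX 2 array, with all 16 arrays normalized, the list mean was 8.69. Myd88 stood there at 8.98, Tlr2 at 7.38, Cd14 at 7.10, Tlr7 at 6.76 and Fcgr4 at 7.23. Minus the list, Myd88, Tlr2, Cd14 and Tlr7 were on that array nearer to the Sham+CDTX mean than to the SCI+CDTX mean. Tlr4 was not, and Fcgr4 was below both means. With 15 arrays, markers of the list went opposite ways between these groups, 2 higher and 2 lower, beside 14.9% of all tested probes each way. Cd163 was higher in SCI+CDTX at 1.75 ± 0.23, adjusted p = 1.99e-05, and Itgam at 0.43 ± 0.16, adjusted p = 0.0435. Cx3cr1 was lower at -1.75 ± 0.20, adjusted p = 5.12e-06, and Mrc1 at -1.02 ± 0.26, adjusted p = 0.00657. With all 16 arrays 1 was higher and 2 lower, and with the score 0 of 13 passed in limma. The part of these cells in the results was not tested.

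Neutrophil markers, of which 10 were tested, set apart array 4 of both saline groups. Their mean level was 8.57 in SCI+Saline 4 and 8.51 in Sham+Saline 4, against 5.28 to 5.81 in the other SCI+Saline arrays and 4.59 to 4.91 in the other Sham+Saline arrays. The CDTX arrays had 6.87 to 7.32 after SCI and 5.82 to 6.22 after sham surgery. With CDTX 3 of the 10 markers rose in each surgery and none fell, beside 20.4% of all tested probes called higher after SCI and 23.1% after sham surgery. Mmp8 was detected on no array. SCI+Saline 4 and Sham+Saline 4 also had the highest mean of their groups for the monocyte and macrophage list, at 7.70 and 6.91. The same held for the B cell list, at 5.23 and 5.41, and for the mast cell and the T and NK cell lists. These 2 arrays were also the highest of their groups for Fcgr1 after SCI, for both rising probes of Fcgr2b, for Fcgr3, Fcgr4 and Fcer1g, and for Cd14 and Myd88. The part of any cell type in this was not tested. With both left out, 12 probes rose with CDTX after SCI and 11 after sham surgery, and 5 passed in each of the SCI comparisons.

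**Figure D5:**
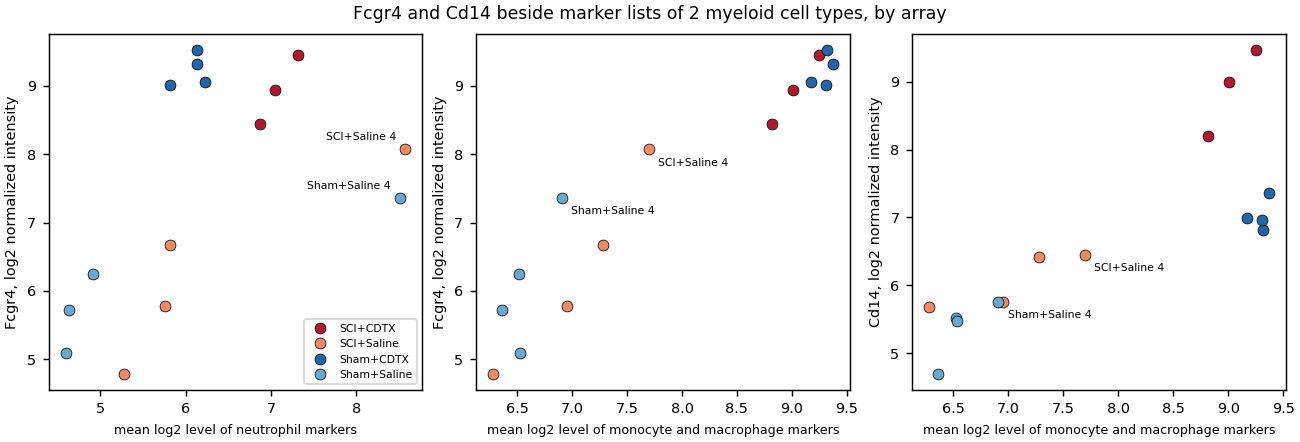
Log2 normalized intensity of Fcgr4 and Cd14 on each of the 15 arrays against the mean log2 level of marker lists. Fcgr4 in SCI+Saline 4 (8.07) and Sham+Saline 4 (7.36) lies beside high neutrophil marker levels and the highest macrophage list means of their groups. Cd14 is higher on the SCI+CDTX arrays than on the Sham+CDTX arrays, whose macrophage list means are 8.82 to 9.25 and 9.17 to 9.37. With 15 arrays single markers of that list went opposite ways between the CDTX groups, and with the probe difference score as a term none was called.

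Some markers of other cell types were also called with CDTX and with SCI. For CDTX in SCI mice, 20.4% of all tested probes were called higher and 22.5% lower, and in sham mice 23.1% and 25.8%. B cell markers, a cell type known for Fcgr2b, were 2 tested of 6 on the array, both higher with CDTX in SCI mice and none called in sham mice, and Pax5 was detected on no array. Of 6 tested T and NK cell markers, 3 rose with CDTX in SCI mice and 2 in sham mice. Of 6 mast cell markers, cells known for Fcer1g, 1 rose after SCI and 2 after sham surgery, and Ms4a2 was detected on no array. Of 8 endothelial markers 4 rose with CDTX in SCI mice and none fell, while 6 fell in sham mice and none rose. Of 2 tested dendritic cell markers 1 rose in sham mice. Between the CDTX groups, where Cd14, Myd88 and Tlr2 were higher after SCI, 4 of 8 endothelial markers were higher and none lower. That stands beside 14.9% of all tested probes in each direction. Cldn5, a tight junction protein, was at 2.24 ± 0.20, adjusted p = 3.46e-07. In the same comparison 3 of 6 T and NK cell markers were higher, Cd3d at 1.14 ± 0.16, adjusted p = 4.15e-05, with Cd3e and Cd3g. Each of these was detected on 5 of 16 arrays. The other tested ones, Klrb1c, Klrk1 and Nkg7, had lower means in SCI+CDTX and were not called. Of that list, Cd8a and Ncr1 were detected on no array and Cd4 on 1. With all 16 arrays 2 endothelial and 3 T and NK cell markers were higher, and with the score 0 of either list passed in limma. In saline-injected muscle 7 of 8 endothelial markers were lower after SCI and none higher, beside 14.6% and 14.8% of all tested probes. Their part in the results was not tested.

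The genes whose levels over the 15 arrays were most like each member's are a description, since the arrays share groups and slides. For Fcgr2b they were Ms4a7 (Pearson r = 0.991), Ly86 (0.990) and C1qc (0.985), and for Fcer1g Ms4a7 (0.994), Ccl9 (0.990) and Sh3bgrl3 (0.985). For Tlr7 they were Cysltr1 (0.994), Clec4a3 (0.985) and Hsp90b1 (0.983). For Cd14 they were Tubb5 (0.978), Ugt1a10 (0.970) and Ptbp3 (0.964), and for Myd88 Sel1l (0.987), Cdca4 (0.983) and Aldh3b1 (0.981). For Fcgr3 the closest was Alox5ap (0.985), for Fcgr4 Arhgdib (0.987), for Fcgr1 Rab7b (0.981), for Tlr2 Igf2bp2 (0.975) and for Tlr4 Emb (0.965).

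The RefSeq promoter table (build GRCm38.p6) held 8 promoters for 7 of the 10 genes, and the 250 bases before each start were searched on both strands because these genes rose together with CDTX. In all, 10 letter strings were searched, after the levels of the genes were known, several of them overlapping forms of the same motif. The core bound by PU.1, a factor of myeloid cells, spelled GAGGAA, was in the promoters of 3 of the 7 genes, Fcgr1, Fcgr3 and Fcgr4, and in 23.3% of all 32851 promoters. Its longer forms AGAGGAAG (3.67% of all promoters) and GAGGAAGT (2.44%) were in those of the same 3 genes and of Fcgr4. A related string, GGGGAAGT (1.24%), was in that of Fcgr2b. The interferon response element (2.98%) was in those of Fcgr4 and Myd88, and GGGNNTTCC (4.98%), like an NF-kappaB site, in those of Fcgr3 and Tlr2. None of the 7 genes had GCAAT (23.1%), TTGCGCAAT (0.0487%), the full NF-kappaB string (0.14%) or the long PU.1 string (0.0304%). The windows with the PU.1 core are shown because these are activating receptors with the core close to the start, with the core in capitals, which lies on the opposite strand in each.
Fcgr1 (chr3:96293992-96294051, minus strand): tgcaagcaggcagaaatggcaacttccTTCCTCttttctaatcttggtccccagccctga
Fcgr3 (chr1:171059395-171059454, minus strand): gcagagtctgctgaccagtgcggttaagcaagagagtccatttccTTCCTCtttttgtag
Fcgr4 (chr1:171018866-171018925, plus strand): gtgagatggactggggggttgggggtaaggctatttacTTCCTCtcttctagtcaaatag
The core begins 55 bases before the start in Fcgr1, 15 in Fcgr3 and 22 in Fcgr4. A match is a description of the letters and no measure of binding.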

How the data were processed

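The authors deposited non-normalized mean bead intensity per probe and array with a detection p-value and bead numbers, and a final table of average-normalized, background-subtracted intensity with difference p-values, per the file headers. GenomeStudio 2011.1 is named in the submitters' processing notes. All per-sample columns were mapped (0 left over).

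Intensities of 15 arrays were background-corrected and quantile normalized with neqc (offset 16) and set to log2 in limma 3.58.1 (R 4.3.3). Tested probes had a detection p below 0.05 on 3 arrays or more. One model with 4 group means was fitted (lmFit, contrasts.fit, eBayes), with Benjamini-Hochberg adjustment per contrast. The offset understates fold changes of dim probes. Permutation tests used SciPy 1.17.1. The fit was tested on simulated data.

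The members, gene lists, tests and alternatives were chosen with earlier results of these data known. Named are all members, up to 3 genes per direction, list and contrast with the largest called change without overlap, and the 3 genes most correlated with each member. From these some are printed. The number of arrays limits the precision. Alternatives covered the arrays included, weights, the probe difference score, background, normalization, filter, variance prior, groups fitted, replicate block, probe, the authors' table and leaving out each array. Leaving out both saline arrays numbered 4, and the gene lists with all 16 arrays, without and with the score, were added after the data were seen.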

Additional observations from a re-analysis of the deposited data

Results flagged for a closer look

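The CDTX effect differed between SCI and sham mice, by limma's test of the interaction, for 6 probes. The interaction was -0.81 for Tlr4 ILMN_2752966 (adjusted p = 0.0394), -1.93 for Tlr7 ILMN_1245354 (adjusted p = 0.000232), -1.31 for Fcgr2b ILMN_1228657 (adjusted p = 0.012) and -1.10 for Fcgr2b ILMN_3102376 (adjusted p = 0.00892). It was 1.14 for Cd14 ILMN_2742075 (adjusted p = 0.0374) and 0.72 for Myd88 ILMN_2971767 (adjusted p = 0.0471). The groups compared differ in slide and the Sham+CDTX arrays in the probe difference score, and none of the 6 passed with that score as a term.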

How the results depend on the processing

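The counts of members that rose with CDTX stayed at 10 to 12 under every alternative that gives a count. With the probe difference score over 16 arrays, the SCI effect in CDTX-injected muscle turned to -0.10 for Tlr2 and -0.61 for Myd88, the interaction turned to -0.80 for Cd14 and -0.98 for Myd88, and 0 probes passed in either; the cause was not tested. With all 16 arrays, 2 probes passed for SCI in CDTX-injected muscle and 3 for the interaction, which also had 3 with no detection filter. For SCI in saline-injected muscle, 3 probes passed with array weights, with no background correction, with no detection filter and with only the groups compared, and 8 with median scaling, with each slide normalized separately and with the stricter filter. Leaving out 1 array gave 3 to 9 probes for SCI in saline and 3 to 6 for the interaction, with 3 without SCI+CDTX 3, SCI+CDTX 4, SCI+Saline 1, Sham+CDTX 2, Sham+CDTX 4 or Sham+Saline 1.

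Over all tested probes, the deviations of same-numbered arrays from their group means had correlations of -0.27 to 0.38, median -0.023, over 21 pairs. Pairs with different numbers had -0.28 to 0.32, median 0.012, over 63 pairs. This gave no sign of a pairing by number over all probes, though SCI+Saline 4 and Sham+Saline 4 were both high in neutrophil markers. Whether the numbers pair the arrays cannot be settled from these correlations. With the replicate number as a block, 11 and 11 probes passed for CDTX after SCI and sham surgery, 3 for SCI in CDTX-injected muscle, 7 for SCI in saline-injected muscle and 4 for the interaction. Probes near background, such as the variant probe of Fcgr2b, are limited by signal over background.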
